A study of Mus musculus with 12 samples.

Results

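Pericytes and vascular smooth muscle cells, together called mural cells, wrap the endothelium of blood vessels. Their genes were followed here through 10 named markers (Rgs5, Pdgfrb, Cspg4, Notch3, Abcc9, Mcam, Acta2, Cnn1, Myh11 and Tagln), taken from the table by symbol. All 10 were found among the 41009 gene rows of the deposited expression table. The tumours came from mCherry-4T1 cells, a mouse mammary carcinoma line carrying a red fluorescent protein, grown in the mammary fat pad of BALB/c mice, females of 4 to 5 weeks. From day 7 after the cells were given, mice received 1 of 4 proteins into the peritoneal cavity. These were VHH-OD-Fc at 3.5 mg/kg, VHH-PD-1-Fc at 2.6 mg/kg, VHH-OD-PD-1-Fc at 4.3 mg/kg, or Ctrl-Fc at 5 mg/kg, and each group has 3 libraries. VHH domains are the small antigen-binding domains of heavy-chain antibodies from camelids, Fc is the constant antibody fragment, and PD-1 is a receptor that restrains T cells. The labels do not spell out OD. VHH-OD-PD-1-Fc carries both binding domains, and all 4 groups carry the same tumour line and an Fc protein.

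Mural cells are drawn to new vessels by PDGF-B, a growth factor that endothelial cells release and that binds the receptor tyrosine kinase encoded by Pdgfrb. Notch3, a receptor that meets Jagged and Delta-like ligands on neighbouring cells, maintains the identity of arterial smooth muscle. Pericytes of small vessels are known for Rgs5, Cspg4 and the potassium channel subunit gene Abcc9, while the smooth muscle of larger vessels is known for the contractile genes Acta2, Cnn1, Myh11 and Tagln. In tumours these genes are not exclusive to mural cells: activated fibroblasts also express Acta2, Tagln and Pdgfrb, myoepithelial cells of the mammary gland express Acta2, Cnn1 and Myh11, and endothelial cells express Mcam. Whole-tumour RNA does not tell fewer cells of a type from less RNA per cell, and this holds for each value given here.

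Values are FPKM, fragment counts divided by transcript length and library size, as the authors deposited them. Genes with 1 annotated transcript had low values in whole multiples of a step that corresponds to between 44000000 and 61450000 counted reads a library. Nothing in the labels ties the 3 libraries of a group to separate mice, so p-values measure only the spread among libraries, which may be technical. The 6 libraries with the PD-1 arm (the VHH-PD-1-Fc libraries and the VHH-OD-PD-1-Fc libraries) summed to between 388142 and 401179 FPKM, against between 327792 and 345596 FPKM in the 6 libraries without it. No batch is named in the labels, and a difference in handling between those sets of 6 cannot be told apart from the PD-1 arm. VHH-OD-Fc against Ctrl and VHH-OD-PD-1-Fc against VHH-PD-1-Fc are comparisons within a set. The 3 VHH-OD-PD-1-Fc libraries lay closer to each other than those of other groups, with a median SD over genes of 0.0747 on the log2 scale, against 0.140 in Ctrl libraries. In single libraries other tissue stood out: the skeletal muscle actin Acta1 reached 1437 FPKM in VHH-OD-Fc library 2, and the epithelial adhesion gene Epcam was at 14.3 FPKM in Ctrl library 1, against 70.5 to 191 FPKM in the other 11 libraries.

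The 10 genes covered a wide range of abundance. In Ctrl tumours Acta2 was highest at 74.4 ± 18.9 FPKM (SD, n = 3 here and for each Ctrl mean in this paragraph), and Mcam followed at 22.3 ± 3.44, Pdgfrb at 12.8 ± 2.87 and Rgs5 at 6.48 ± 0.757 FPKM. Cnn1 stood at 3.94 ± 1.77 FPKM. Neighbours in this order did not overlap in their Ctrl libraries down to and including Cnn1. Abcc9 at 1.14 ± 0.153, Notch3 at 1.12 ± 0.180, Cspg4 at 1.09 ± 0.381 and Myh11 at 0.928 ± 0.101 FPKM were all near 1 and overlapped one another, so their order is not set by these libraries. Tagln, a smooth muscle actin-binding gene that mural cells usually express in quantity, was lowest at 0.405 ± 0.0698 FPKM. Over all 12 libraries the highest value exceeded the lowest 12.1 times for Myh11 and 9.82 times for Cnn1, but 2.21 times for Pdgfrb and 2.66 times for Mcam.

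**Figure D1:**
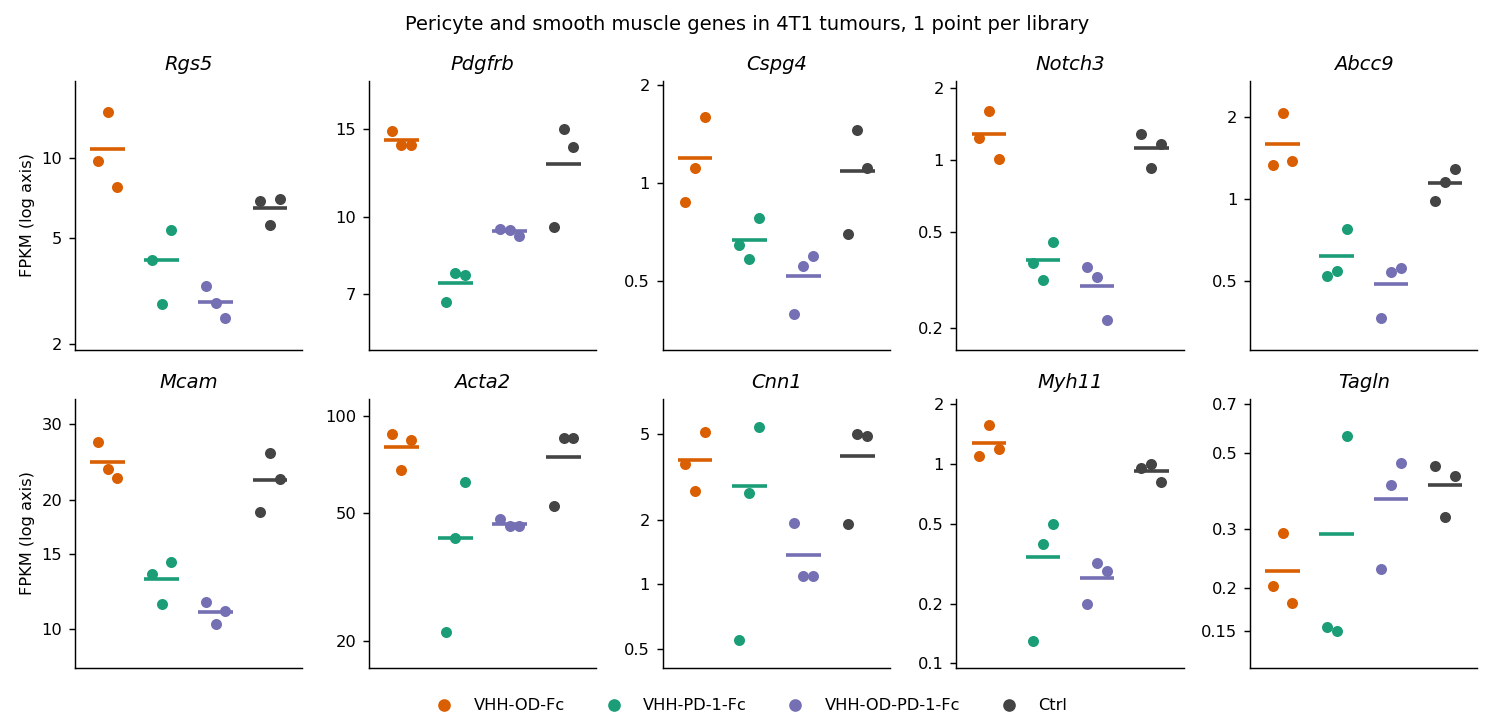
FPKM on a log axis (y) of the 10 genes, 1 panel each, in tumours of each group (x, from left VHH-OD-Fc, then VHH-PD-1-Fc, then VHH-OD-PD-1-Fc, then Ctrl, coloured as in the legend), with 1 point per library and a line at the mean of 3. Rgs5, Pdgfrb, Notch3, Abcc9, Mcam and Myh11 were lower in all 6 libraries with the PD-1 arm than in any of the 6 libraries without it, as were 22.7% of all tested genes. Notch3, Abcc9 and Myh11 reached 1 FPKM only without the arm and were tested because of those libraries. Their place here does not stand as support for a fall.

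Promoter sequences, taken from RefSeq on GRCm38.p6 as 250 bases before to 50 bases after the start, were held for 7 of the 10 genes. These were searched on both strands for the CArG box, the element bound by serum response factor in contractile gene promoters, and for TGGGAA, the core bound by the Notch effector RBPJ. The strict CArG consensus, CC and GG around 6 bases that are all A or T, was in 0 of these 7 windows and in 1.63% of all 32851 promoters of the same length. With 1 other base allowed among those 6, Acta2 alone of the 7 held it, at 2 places, and 9.98% of all promoters held it. TGGGAA was in 2 of the 7, Acta2 and Abcc9, and in 25.6% of all promoters. The windows of Acta2, the most abundant of the 10 genes, and of Abcc9 are shown with TGGGAA in capitals, and that of Mcam, whose calls held under every processing alternative tried in the 3 comparisons between libraries with and without the PD-1 arm, is shown beside them. They lie at chr19:34255324-34255623 on the minus strand for Acta2, at chr6:142702225-142702524 on the minus strand for Abcc9, and at chr9:44134408-44134707 on the plus strand for Mcam. A match is a string of letters and not a bound site.
Acta2: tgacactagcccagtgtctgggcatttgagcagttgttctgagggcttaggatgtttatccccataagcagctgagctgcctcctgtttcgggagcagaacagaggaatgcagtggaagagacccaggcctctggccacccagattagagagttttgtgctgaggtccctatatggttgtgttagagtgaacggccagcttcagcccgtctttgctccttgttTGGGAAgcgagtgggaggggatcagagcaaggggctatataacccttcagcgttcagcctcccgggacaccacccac
Abcc9: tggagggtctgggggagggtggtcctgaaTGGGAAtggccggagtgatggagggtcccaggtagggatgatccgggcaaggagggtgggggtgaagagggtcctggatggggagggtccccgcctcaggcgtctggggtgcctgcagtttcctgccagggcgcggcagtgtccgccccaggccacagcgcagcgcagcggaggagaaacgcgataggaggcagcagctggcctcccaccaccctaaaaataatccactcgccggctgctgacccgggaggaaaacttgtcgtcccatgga
Mcam: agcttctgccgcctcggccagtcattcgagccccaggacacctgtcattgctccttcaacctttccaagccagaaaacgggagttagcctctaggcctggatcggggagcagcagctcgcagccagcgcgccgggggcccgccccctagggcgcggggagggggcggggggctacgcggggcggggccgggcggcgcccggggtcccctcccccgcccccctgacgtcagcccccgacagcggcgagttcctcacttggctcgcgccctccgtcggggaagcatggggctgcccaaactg
In the Acta2 window TGGGAA begins 27 bases before the start, inside the nearer of the 2 CArG-like places, which begin 84 and 34 bases before it, and in the Abcc9 window 221 bases before it. The Mcam window is 72.7% G and C, the Abcc9 window 65.7% and the Acta2 window 54.7%.

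Rgs5, a regulator of G protein signalling and one of the most used pericyte markers, had its highest mean in VHH-OD-Fc tumours and its lowest in VHH-OD-PD-1-Fc tumours. It was at 9.74, 14.7 and 7.73 FPKM in VHH-OD-Fc tumours, 4.15, 2.84 and 5.38 FPKM in VHH-PD-1-Fc tumours, 3.29, 2.86 and 2.50 FPKM in VHH-OD-PD-1-Fc tumours, and 6.86, 5.61 and 6.97 FPKM in Ctrl tumours. All VHH-OD-Fc libraries lay above all Ctrl libraries, and all libraries with the PD-1 arm lay below them. Pdgfrb, the PDGF-B receptor, was at 14.85, 13.96 and 13.97 FPKM in VHH-OD-Fc tumours, 6.77, 7.74 and 7.65 FPKM in VHH-PD-1-Fc tumours, 9.48, 9.43 and 9.19 FPKM in VHH-OD-PD-1-Fc tumours, and 9.53, 15.0 and 13.8 FPKM in Ctrl tumours. Ctrl library 1 came close to the VHH-OD-PD-1-Fc libraries, and each VHH-PD-1-Fc library was below each of them. Mcam, also called CD146, an adhesion molecule of pericytes and endothelium, was at 27.3, 23.6 and 22.5 FPKM in VHH-OD-Fc tumours, 13.4, 11.4 and 14.4 FPKM in VHH-PD-1-Fc tumours, 11.6, 10.3 and 11.0 FPKM in VHH-OD-PD-1-Fc tumours, and 18.8, 25.7 and 22.4 FPKM in Ctrl tumours. Its libraries with and without the PD-1 arm were apart, with a gap between 14.4 and 18.8 FPKM.

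The other 3 pericyte genes were low. Notch3 was at 1.24, 1.61 and 1.01 FPKM in VHH-OD-Fc tumours, 0.373, 0.318 and 0.457 FPKM in VHH-PD-1-Fc tumours, 0.359, 0.324 and 0.215 FPKM in VHH-OD-PD-1-Fc tumours, and 1.28, 0.929 and 1.16 FPKM in Ctrl tumours. Abcc9, which encodes the SUR2 subunit of the ATP-sensitive potassium channel of mural cells, was at 1.33, 2.07 and 1.37 FPKM in VHH-OD-Fc tumours, 0.520, 0.542 and 0.776 FPKM in VHH-PD-1-Fc tumours, 0.364, 0.538 and 0.555 FPKM in VHH-OD-PD-1-Fc tumours, and 0.982, 1.15 and 1.29 FPKM in Ctrl tumours. Both genes had every library with the PD-1 arm below every library without it, and the VHH-OD-Fc libraries of Abcc9 lay above its Ctrl libraries. Cspg4, the NG2 proteoglycan, was at 0.873, 1.11 and 1.60 FPKM in VHH-OD-Fc tumours, 0.644, 0.584 and 0.782 FPKM in VHH-PD-1-Fc tumours, 0.395, 0.557 and 0.598 FPKM in VHH-OD-PD-1-Fc tumours, and 0.696, 1.46 and 1.11 FPKM in Ctrl tumours. Ctrl library 1 fell among the VHH-PD-1-Fc libraries, so the sets with and without the arm overlapped for Cspg4.

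Among the contractile genes, Acta2, the smooth muscle alpha-actin, was at 87.6, 67.7 and 84.1 FPKM in VHH-OD-Fc tumours, 21.3, 41.8 and 62.2 FPKM in VHH-PD-1-Fc tumours, 47.9, 45.4 and 45.4 FPKM in VHH-OD-PD-1-Fc tumours, and 52.6, 85.1 and 85.5 FPKM in Ctrl tumours. VHH-PD-1-Fc library 1 was the lowest of all and VHH-PD-1-Fc library 3 exceeded Ctrl library 1. Cnn1, calponin, an actin-binding protein of contractile cells, varied with Acta2 between libraries, with 3.62, 2.71 and 5.09 FPKM in VHH-OD-Fc tumours, 0.552, 2.67 and 5.42 FPKM in VHH-PD-1-Fc tumours, 1.94, 1.09 and 1.09 FPKM in VHH-OD-PD-1-Fc tumours, and 1.90, 5.03 and 4.90 FPKM in Ctrl tumours. Both the lowest and the highest Cnn1 values were in VHH-PD-1-Fc tumours. Myh11, the smooth muscle myosin heavy chain, the most specific contractile marker of the list, was at 1.10, 1.57 and 1.19 FPKM in VHH-OD-Fc tumours, 0.130, 0.398 and 0.504 FPKM in VHH-PD-1-Fc tumours, 0.198, 0.319 and 0.291 FPKM in VHH-OD-PD-1-Fc tumours, and 0.960, 1.01 and 0.815 FPKM in Ctrl tumours. For Myh11 the 3 levels did not overlap: VHH-OD-Fc above Ctrl, and Ctrl above both groups with the PD-1 arm. The actin genes are close copies of one another in their coding sequence, and how the counting treated reads shared between Acta2 and Acta1 is not given in the sources used here. In VHH-OD-Fc library 2, where Acta1 was at 1437 FPKM, Acta2 was lowest of its group.

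Tagln, also called SM22-alpha, did not pass the filter on low values in any library. It was at 0.203, 0.292 and 0.182 FPKM in VHH-OD-Fc tumours, 0.154, 0.150 and 0.564 FPKM in VHH-PD-1-Fc tumours, 0.228, 0.403 and 0.467 FPKM in VHH-OD-PD-1-Fc tumours, and 0.458, 0.326 and 0.430 FPKM in Ctrl tumours. The VHH-OD-Fc libraries lay below the Ctrl libraries, the only one of the 10 genes with that order, while both groups with the PD-1 arm overlapped Ctrl. In the GENCODE M21 mouse annotation, 62.4% of the exonic bases of Tagln are overlapped by Gm48529, an antisense gene on the opposite strand that was at 0.147 to 0.886 FPKM, and 5.43% by Pcsk7. The use of strand in the counting is not given in the sources used here, so the level of Tagln is uncertain, and the part of the overlap in it was not tested. Among the other 9 genes such overlaps covered 6.03% of Notch3, 1.89% of Abcc9, 0.507% of Mcam and none of the remaining genes.

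Differences were tested with limma on log2(FPKM + 1) over 14306 genes that reached 1 FPKM in at least 3 of the 12 libraries, two-sided, and a gene was called when its p, adjusted by Benjamini-Hochberg over all genes tested, was under 0.05. A difference on this scale understates the change of genes near or under 1 FPKM. The 9 genes other than Tagln were tested. Rgs5, Pdgfrb, Acta2, Mcam and Cnn1 passed the filter among libraries with the PD-1 arm and among those without it. Myh11, Cspg4, Notch3 and Abcc9 passed only through libraries without the arm, that is, through libraries where they were higher. Counts over the tested genes include these 4 and do not stand as support for a direction. The same holds for the single tests of these 4 genes between libraries with and without the arm. Over all tested genes the libraries with the PD-1 arm did not overlap those without it, and were lower, for 22.7% of genes, and for 6 of the 10 genes followed here.

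VHH-OD-Fc tumours had the highest mean levels of all 6 pericyte genes and of Acta2 and Myh11, but none of the differences from Ctrl was called. Rgs5 averaged 10.7 ± 3.61 FPKM in VHH-OD-Fc tumours and 6.48 ± 0.757 FPKM in Ctrl tumours (SD, n = 3 each), 1.66 times the Ctrl mean, with a log2 difference of 0.61 ± 0.22 (SE; 95% interval 0.12 to 1.10). Its limma adjusted p was 1. Of the 9 tested genes 0 passed the threshold, as did 0% of all genes, where 449 genes had an unadjusted p under 0.05 and the smallest adjusted p was 0.108. All 9 fitted differences were positive, from 0.00 for Cnn1 to 0.61 for Rgs5, with a median of 0.13 against -0.02 over all genes. Rgs5, Myh11 and Abcc9 were higher in every VHH-OD-Fc library than in any Ctrl library, an order found for 3.5% of all tested genes. Tagln had the opposite order, as did 6.7% of all tested genes. Myh11, Notch3 and Abcc9 reached 1 FPKM in all VHH-OD-Fc libraries but not in all Ctrl libraries, which went down to 0.815, 0.929 and 0.982 FPKM. They passed the filter through the group where they were higher, so their part in these counts does not stand as support for a rise. The intervals show what these libraries leave undecided: that of Pdgfrb ran from -0.13 to 0.47, that of Mcam from -0.14 to 0.41 and that of Acta2 from -0.56 to 0.81. Without Ctrl library 1 the differences of Pdgfrb, Acta2, Cspg4 and Cnn1 were -0.01, -0.10, -0.07 and -0.34.

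Mcam, Pdgfrb, Notch3, Myh11, Abcc9 and Acta2 fell in VHH-PD-1-Fc tumours against Ctrl tumours, and Rgs5, Cspg4 and Cnn1 did not pass. Mcam averaged 13.1 ± 1.50 FPKM in VHH-PD-1-Fc tumours and 22.3 ± 3.44 FPKM in Ctrl tumours (SD, n = 3 each), and fell by 0.72 ± 0.13 on the log2 scale (SE, limma adjusted p = 0.0012). Pdgfrb averaged 7.39 ± 0.532 FPKM against 12.8 ± 2.87 FPKM in Ctrl tumours and fell by 0.69 ± 0.13 (limma adjusted p = 0.0021). Notch3 fell by 0.62 ± 0.14, Myh11 by 0.53 ± 0.15 and Abcc9 by 0.41 ± 0.14, with limma adjusted p of 0.0045, 0.014 and 0.038. Notch3, Myh11 and Abcc9 reached 1 FPKM only without the arm, so these tests do not stand as support for a fall. Acta2 fell by 0.91 ± 0.31 (limma adjusted p = 0.034), to 41.8 ± 20.5 FPKM in VHH-PD-1-Fc tumours against 74.4 ± 18.9 FPKM in Ctrl tumours. That call was lost without VHH-PD-1-Fc library 1, where the difference was -0.50, and also without VHH-PD-1-Fc library 2, Ctrl library 2 or Ctrl library 3, at -0.97, -0.80 and -0.79.

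In this comparison 6 of the 9 tested genes were called lower and 0 higher, and 32.3% of all tested genes were called lower. Rgs5, at a log2 difference of -0.57 ± 0.22 (limma adjusted p = 0.053), Cspg4 at -0.31 ± 0.17 (0.15) and Cnn1 at -0.50 ± 0.45 (0.38) did not pass. The median difference of the 9 genes was -0.57, against -0.19 over all genes. Abcc9 lost its call without either of VHH-PD-1-Fc libraries 1 and 2, VHH-OD-PD-1-Fc library 2, or Ctrl libraries 2 and 3, with differences between -0.41 and -0.36, and Rgs5 passed without VHH-PD-1-Fc library 3, at -0.75, or without VHH-OD-Fc library 2 or 3, at an unchanged -0.57. VHH-PD-1-Fc and Ctrl libraries did not overlap for 6 of the 10 genes, all lower, as was the case for 33.7% of all tested genes. All 3 of Rgs5, Pdgfrb and Mcam were among these 6.

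In VHH-OD-PD-1-Fc tumours, Rgs5 and Mcam differed from Ctrl by nearly 1 unit of log2(FPKM + 1). Rgs5 averaged 2.88 ± 0.395 FPKM in VHH-OD-PD-1-Fc tumours and 6.48 ± 0.757 FPKM in Ctrl tumours (SD, n = 3 each) and fell by 0.95 ± 0.22 (SE, limma adjusted p = 0.0064). Mcam averaged 10.9 ± 0.649 FPKM against 22.3 ± 3.44 FPKM in Ctrl tumours and fell by 0.95 ± 0.13 (limma adjusted p = 0.00033). Notch3 fell by 0.71 ± 0.14, Myh11 by 0.60 ± 0.15, Abcc9 by 0.53 ± 0.14 and Pdgfrb by 0.39 ± 0.13, with limma adjusted p of 0.0025, 0.0080, 0.014 and 0.039. The tests of Notch3, Myh11 and Abcc9, which reached 1 FPKM only without the arm, do not stand as support for a fall. Acta2 at -0.64 ± 0.31 (0.12), Cspg4 at -0.45 ± 0.17 (0.053) and Cnn1 at -1.003 ± 0.45 (0.094) did not pass. Ratios of mean FPKM, Ctrl over VHH-OD-PD-1-Fc, gave another order. They were 3.76 for Notch3, 3.45 for Myh11, 2.87 for Cnn1 and 2.35 for Abcc9. Rgs5 followed at 2.25, Cspg4 at 2.10, Mcam at 2.04, Acta2 at 1.61 and Pdgfrb at 1.36. Of the 9 tested genes 6 were called lower and 0 higher, against 27.1% of all tested genes called lower, and their median was -0.64 against -0.14 over all genes.

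Pdgfrb rested on single libraries in this comparison: its call was lost without Ctrl library 2 (-0.27), without Ctrl library 3 (-0.32), and without any 1 of the VHH-OD-Fc and VHH-OD-PD-1-Fc libraries (-0.40 to -0.37). The libraries of VHH-OD-PD-1-Fc and Ctrl did not overlap for 8 of the 10 genes, all lower, and for 41.4% of all tested genes. Cnn1 and Tagln were the exceptions. Acta2 and Cnn1 passed without VHH-PD-1-Fc library 1, a library of another group that adds to the shared estimate of the spread, with unchanged differences and limma adjusted p of 0.026 and 0.028. Cnn1 also passed without VHH-PD-1-Fc library 3 or Ctrl library 1 (-1.35), and Cspg4 without VHH-OD-Fc library 3 or Ctrl library 1 (-0.59). Abcc9 lost its call without VHH-OD-PD-1-Fc library 1 (-0.47) or Ctrl library 3 (-0.48). If the close VHH-OD-PD-1-Fc libraries were averaged and counted as 1 sample, Mcam alone was called.

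Adding the OD arm to the PD-1 arm, a comparison within 1 set of libraries, gave no called difference among the 9 genes, and 0.839% of all tested genes were called in either direction. Pdgfrb averaged 9.37 ± 0.159 FPKM in VHH-OD-PD-1-Fc tumours and 7.39 ± 0.532 FPKM in VHH-PD-1-Fc tumours (SD, n = 3 each), a log2 difference of 0.31 ± 0.13 (limma adjusted p = 0.30, 95% interval 0.01 to 0.60). It was higher in every VHH-OD-PD-1-Fc library, an order found for 13.8% of all tested genes. None of the 10 genes was lower without overlap, against 7.25% of tested genes. Rgs5 averaged 2.88 ± 0.395 FPKM in VHH-OD-PD-1-Fc tumours and 4.12 ± 1.27 FPKM in VHH-PD-1-Fc tumours, and its difference was -0.37 ± 0.22 (limma adjusted p = 0.46, 95% interval -0.86 to 0.11). The intervals of Notch3 (-0.40 to 0.22), Abcc9 (-0.44 to 0.20), Myh11 (-0.40 to 0.25) and Mcam (-0.51 to 0.04) were narrower than those of Acta2 (-0.42 to 0.96) and Cnn1 (-1.50 to 0.49). Notch3, Abcc9 and Myh11 were under 1 FPKM in both groups, where adding 1 FPKM narrows differences and intervals alike. Under other processing the differences of Notch3, Abcc9 and Myh11 reached -0.29, -0.29 and -0.27. The difference of Acta2 was 0.27 in all libraries and -0.14 without VHH-PD-1-Fc library 1.

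Between VHH-OD-PD-1-Fc and VHH-OD-Fc tumours the fitted differences of Rgs5 and Mcam were larger than in any comparison with Ctrl. Rgs5 averaged 2.88 ± 0.395 FPKM in VHH-OD-PD-1-Fc tumours and 10.7 ± 3.61 FPKM in VHH-OD-Fc tumours (SD, n = 3 each), and fell by 1.56 ± 0.22 on the log2 scale (SE, limma adjusted p = 0.00054). Mcam fell by 1.09 ± 0.13, Myh11 by 0.84 ± 0.15, Notch3 by 0.81 ± 0.14 and Abcc9 by 0.79 ± 0.14, with limma adjusted p of 0.00021, 0.0015, 0.0014 and 0.0019. Pdgfrb fell by 0.56 ± 0.13 and Cspg4 by 0.52 ± 0.17, with limma adjusted p of 0.0080 and 0.031. The tests of Myh11, Notch3, Abcc9 and Cspg4, which reached 1 FPKM only without the arm, do not stand as support for a fall. Acta2 at -0.77 ± 0.31 (0.073) and Cnn1 at -1.01 ± 0.45 (0.097) did not pass. By ratio of mean FPKM, VHH-OD-Fc over VHH-OD-PD-1-Fc, Myh11 (4.77) and Notch3 (4.29) exceeded Rgs5 (3.73) and Mcam (2.24). Of the 9 tested genes 7 were called lower, against 24.5% of all tested genes, and libraries did not overlap for 9 of the 10 genes (all but Tagln), all lower, as for 40.4% of all tested genes. Cspg4 lost its call without VHH-OD-Fc library 2 or 3 or any 1 VHH-OD-PD-1-Fc library, with differences between -0.56 and -0.39. Acta2 and Cnn1 passed without VHH-PD-1-Fc library 1 or 3, with unchanged differences. VHH-OD-PD-1-Fc tumours enter this comparison, that with Ctrl and that with VHH-PD-1-Fc, and Ctrl tumours enter 3 comparisons, so these results share libraries.

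The difference from additivity, which takes the log2 effects of both proteins with a single arm from that of VHH-OD-PD-1-Fc, was called for 0 of the 9 genes and for 0.112% of all tested genes. Doses in mg/kg differed between groups. Rgs5 had the largest value of the 9, -0.98 ± 0.31 (SE, limma adjusted p = 0.26, 95% interval -1.67 to -0.30). The other 8 values ran from -0.51 for Cnn1 to 0.14 for Acta2.

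**Figure D2:**
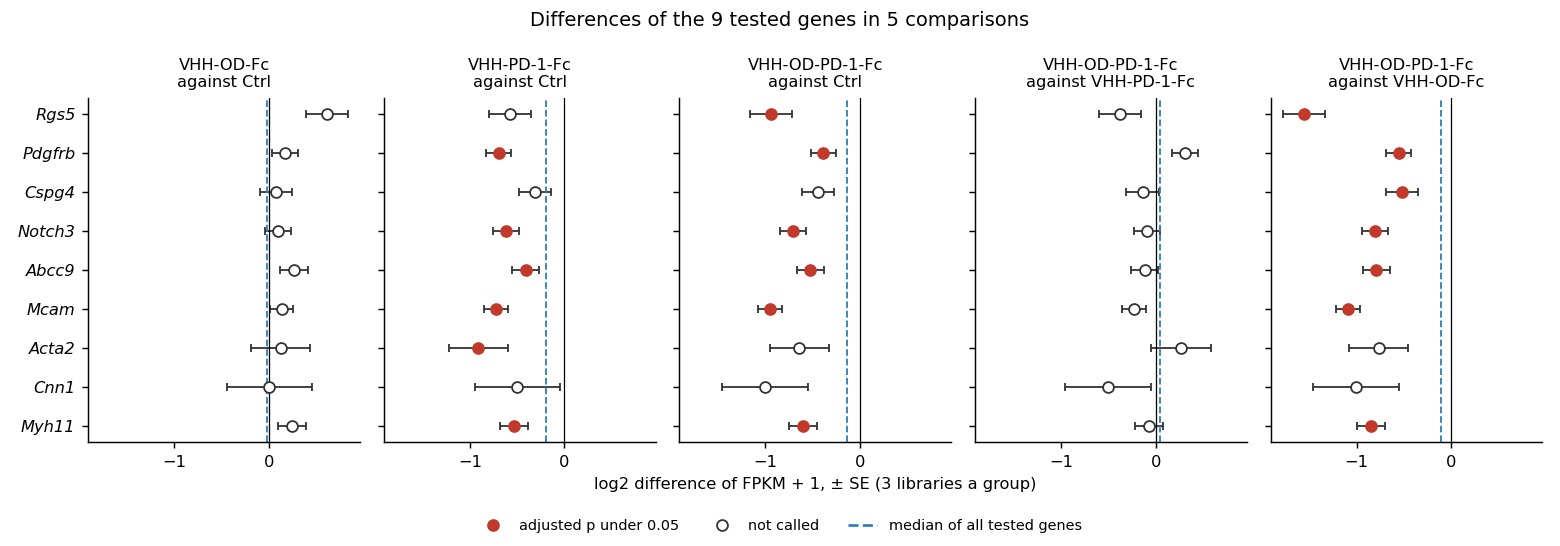
Log2 difference of FPKM + 1 (x, ± SE) of the 9 tested genes (y) in 5 comparisons, with filled points at an adjusted p under 0.05 and a dashed line at the median of all tested genes. In the 3 comparisons between libraries with and without the PD-1 arm all 9 points lie left of 0, and 6, 6 and 7 of them are filled, while no point is filled in the 2 comparisons within a set of libraries. Of all tested genes 32.3%, 27.1% and 24.5% were called lower in those 3, and 0% and 0.839% were called in either direction within a set. Myh11, Cspg4, Notch3 and Abcc9 reached 1 FPKM only without the arm and passed the filter through those libraries. Their points do not stand as support for a fall.

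The background of the comparisons between sets was broad and depended on scaling. In VHH-PD-1-Fc against Ctrl, 2092 genes were called higher and 4615 lower on FPKM as deposited, and 3129 higher and 2843 lower after median-of-ratios scaling. The same counts were 2158 and 3878, then 2909 and 2624, for VHH-OD-PD-1-Fc set against Ctrl, and 2209 and 3503, then 2797 and 2587, in VHH-OD-PD-1-Fc against VHH-OD-Fc. After that scaling, which moved the median of all genes in VHH-PD-1-Fc against Ctrl to -0.01, 4, 5 and 6 of the 9 genes were called in these comparisons, all lower, as were 19.9%, 18.3% and 18.1% of all tested genes. Rescaling to TPM moved that median to -0.43 and gave 7, 8 and 8, where 47.5%, 43.3% and 39.3% of all tested genes were called lower. No filter on low values left all 10 genes in the test: 4, 5 and 6 were called lower, among 10.1%, 9.1% and 8.06% of 41009 rows. Tagln was not called in any comparison then, with differences between -0.20 and 0.15 in the 5 comparisons of groups and 0.29 from additivity.

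Fold changes between the sets also fell with gene length. Over 13520 tested genes with a length in the annotation, Spearman's rho between the log2 difference and exonic length was -0.29 in VHH-PD-1-Fc against Ctrl, -0.32 for VHH-OD-PD-1-Fc set against Ctrl and -0.34 in VHH-OD-PD-1-Fc against VHH-OD-Fc. It was 0.01 in VHH-OD-Fc against Ctrl and -0.02 in VHH-OD-PD-1-Fc against VHH-PD-1-Fc, across genes, which are not independent replicates. The lowly expressed genes of the list are long, with 7599 exonic bases for Myh11, 8089 for Notch3, 8373 for Abcc9 and 11931 for Cspg4, against a median of 3688. Acta2 with 2196, Cnn1 with 2736 and Mcam with 3350 bases are shorter. With VHH-OD-PD-1-Fc set against Ctrl, Mcam at -0.95 stood beside a median of -0.12 for the 1352 tested genes nearest to it in length, and Rgs5 at -0.95 against -0.22. Cspg4 at -0.45 and Pdgfrb at -0.39 were nearer to the medians of their neighbours, -0.32 and -0.25. In VHH-PD-1-Fc against Ctrl, Cspg4 at -0.31 lay above that median, -0.37. Neighbours were matched on length and not on abundance, and Cspg4 averaged 0.670 and 1.09 FPKM, where this scale understates a change. Under other processing its difference ran from -0.62 to 0.04.

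With the length trend removed from each library, 2500, 2273 and 2158 of 13520 genes were called lower in the 3 comparisons between sets, in the order of the next sentences. VHH-PD-1-Fc against Ctrl kept 1 call of the 9, Mcam at -0.55. VHH-OD-PD-1-Fc against Ctrl kept 3, Rgs5 at -0.73, Notch3 at -0.40 and Mcam at -0.83. VHH-OD-PD-1-Fc against VHH-OD-Fc kept 5, without Pdgfrb (-0.34, limma adjusted p = 0.11) and Cspg4 (-0.21, limma adjusted p = 0.35). Notch3, Myh11 and Abcc9 reached 1 FPKM only without the arm. Where kept, their calls do not stand as support for a fall. Acta2, short and abundant, moved little in VHH-PD-1-Fc against Ctrl, to -0.87, but its limma adjusted p became 0.057. Pdgfrb was at -0.39 there (limma adjusted p = 0.063) and Cspg4 turned to 0.04.

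**Figure D3:**
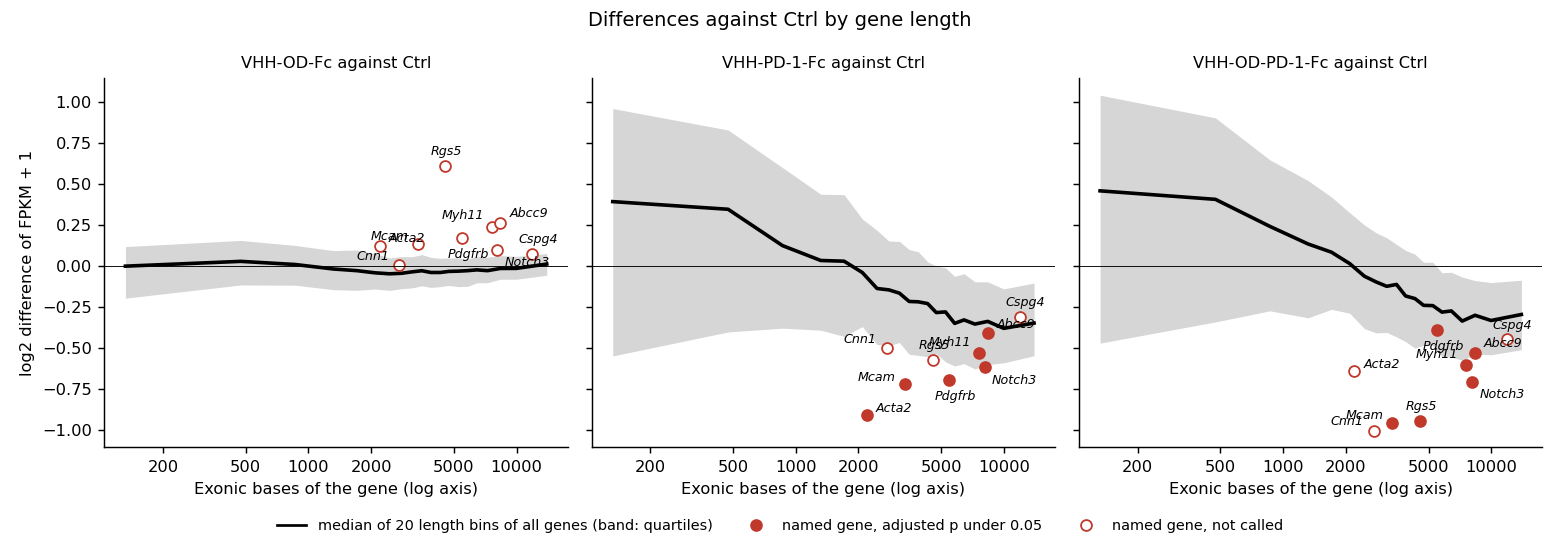
Log2 difference against Ctrl (y) by exonic length of the gene (x, log axis) in 1 panel each for VHH-OD-Fc tumours, VHH-PD-1-Fc tumours and VHH-OD-PD-1-Fc tumours, with the median and quartiles of 20 length bins of all genes and the 9 tested genes as points. The median falls with length in both panels with the PD-1 arm and stays near 0 in the VHH-OD-Fc panel, and Mcam lies below the median in both panels with the arm.

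The ligands and partners of these receptors were measured in the same libraries. Pdgfb, the endothelial ligand of the Pdgfrb receptor, averaged 11.4 ± 3.78 FPKM in VHH-PD-1-Fc, 10.4 ± 0.771 FPKM in VHH-OD-PD-1-Fc and 16.5 ± 2.35 FPKM in Ctrl tumours (SD, n = 3 each). It fell by 0.53 ± 0.18 and 0.61 ± 0.18 against Ctrl, with limma adjusted p of 0.034 and 0.021. Pdgfra, the related receptor of fibroblasts, averaged 2.59 ± 0.273, 3.23 ± 0.171 and 6.95 ± 1.35 FPKM in the same groups and fell by 1.14 ± 0.13 and 0.90 ± 0.13, with limma adjusted p of 0.00014 and 0.00053. Pdgfa, a ligand made by epithelial cells, was at 0.07 ± 0.33 and 0.38 ± 0.33 and did not pass, and Pdgfc and Pdgfd stayed under the filter with at most 1.15 FPKM and 0.718 FPKM.

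Of 12 genes around Notch3, 10 were tested. Against Ctrl, where 32.3% and 27.1% of all tested genes were called lower in VHH-PD-1-Fc and in VHH-OD-PD-1-Fc tumours, 6 fell in VHH-PD-1-Fc tumours (Notch1, Notch4, Dll1, Jag1, Jag2 and Notch2) and 4 fell in VHH-OD-PD-1-Fc tumours (Notch1, Notch2, Notch4 and Jag2), with 0 higher in both. Notch1 reached 1 FPKM only in libraries without the PD-1 arm and passed the filter through them, so it had to be lower with the arm. This receptor fell by 0.91 ± 0.12 and 0.88 ± 0.12, with limma adjusted p of 0.00027 and 0.00039. Notch4, an endothelial receptor, fell by 0.92 ± 0.23 and 1.28 ± 0.23, with limma adjusted p of 0.0073 and 0.0014. Dll1 was the ligand with the largest difference in VHH-PD-1-Fc tumours, -1.09 ± 0.29 (limma adjusted p = 0.011), and in VHH-OD-PD-1-Fc tumours it was at -0.20 ± 0.29 (limma adjusted p = 0.61). The difference between these, VHH-OD-PD-1-Fc against VHH-PD-1-Fc, was 0.90 ± 0.29 (limma adjusted p = 0.17). Genes that Notch signalling switches on did not pass: against Ctrl, Heyl was at -0.01 ± 0.24 and -0.32 ± 0.24, Hes1 at 0.31 ± 0.15 and 0.20 ± 0.15, and Nrarp at 0.04 ± 0.17 and 0.13 ± 0.17. Hey1 and Hey2 were under the filter.

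Kcnj8 encodes the pore subunit Kir6.1, which pairs with the Abcc9 product in the channel of mural cells. It was at 3.22, 3.46 and 3.34 FPKM in VHH-OD-Fc tumours, 2.83, 2.51 and 4.27 FPKM in VHH-PD-1-Fc tumours, 2.51, 2.39 and 2.44 FPKM in VHH-OD-PD-1-Fc tumours, and 3.26, 3.47 and 3.44 FPKM in Ctrl tumours. Its differences from Ctrl were -0.02 ± 0.13 in VHH-OD-Fc, -0.09 ± 0.13 in VHH-PD-1-Fc and -0.35 ± 0.13 in VHH-OD-PD-1-Fc tumours, with limma adjusted p of 1, 0.62 and 0.054. The pancreatic type partners Kcnj11 and Abcc8 were not tested, and apart from 1.47 FPKM of Kcnj11 in VHH-OD-Fc library 2 they stayed at or under 0.238 FPKM.

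Among further mural genes the share called lower was near or below that of all tested genes, 32.3% in VHH-PD-1-Fc and 27.1% in VHH-OD-PD-1-Fc tumours. Of 20 other pericyte genes 13 were tested, and 3 fell and 0 rose in each group with the PD-1 arm against Ctrl: Rgs4, Steap4 and Anpep. Rgs4, a relative of Rgs5, reached 1 FPKM only in libraries without the PD-1 arm and so had to be lower with it. It fell by 0.50 ± 0.15 in VHH-PD-1-Fc tumours and by 0.63 ± 0.15 in VHH-OD-PD-1-Fc tumours, with limma adjusted p of 0.017 and 0.0060. The list medians were -0.10 and -0.07, against -0.19 and -0.14 over all tested genes. Of 25 other smooth muscle genes 18 were tested, and 4 fell in VHH-PD-1-Fc tumours and 5 in VHH-OD-PD-1-Fc tumours, with 0 higher and medians of -0.26 and -0.37. Filip1l had the smallest p in both, at -1.49 ± 0.11 and -1.52 ± 0.11, with limma adjusted p of 2.2e-05 and 1.8e-05. Mylk, the myosin light chain kinase, fell by 0.67 ± 0.21 in VHH-OD-PD-1-Fc tumours (limma adjusted p = 0.026). In VHH-OD-Fc against Ctrl 0 genes of both lists were called, with a median of 0.11 in each.

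Markers of other cells that share these genes moved in the same comparisons. Of 14 tested endothelial genes, 9 fell in VHH-PD-1-Fc tumours and 7 in VHH-OD-PD-1-Fc tumours against Ctrl, with medians of -0.45 and -0.42, while 32.3% and 27.1% of all tested genes were called lower. Of these 14, 2 (Kdr and Erg) reached 1 FPKM only in libraries without the arm, and both are in each count. Pecam1, the defining endothelial adhesion gene, had 3.91, 3.97 and 4.17 FPKM in VHH-PD-1-Fc tumours, 4.86, 4.84 and 4.29 FPKM in VHH-OD-PD-1-Fc tumours and 7.79, 9.81 and 8.65 FPKM in Ctrl tumours, and fell by 0.95 ± 0.13 and 0.78 ± 0.13 (limma adjusted p of 0.00038 and 0.0012). Of 16 tested genes of fibroblasts, 10 fell in VHH-PD-1-Fc tumours and 3 in VHH-OD-PD-1-Fc tumours, with medians of -1.05 and -0.44, against the same shares of all genes. Fap, 1 of the 10, reached 1 FPKM only in libraries without the arm. The summed level of the fibroblast list was 864 to 1468 FPKM in VHH-PD-1-Fc, 1285 to 1296 FPKM in VHH-OD-PD-1-Fc and 1282 to 1766 FPKM in Ctrl libraries, and no gene of it was at 0. In VHH-OD-PD-1-Fc against VHH-OD-Fc, where 24.5% of all tested genes were called lower, 9 of the 14 endothelial and 9 of the 16 fibroblast genes fell, with medians of -0.61 and -0.88. Kdr and Erg are in the first of these counts and Fap is in the second. The fibroblast list summed to 1629 to 2363 FPKM in VHH-OD-Fc libraries. Its median in VHH-OD-Fc against Ctrl was 0.35, beside 0.08 for the endothelial list and 0.13 for the 9 tested genes followed here, with 0 called in each. Endothelial genes summed to 103 to 134 FPKM in VHH-PD-1-Fc, 115 to 118 FPKM in VHH-OD-PD-1-Fc, 163 to 201 FPKM in VHH-OD-Fc and 148 to 178 FPKM in Ctrl libraries, and none was at 0 throughout a group. The part of fibroblasts and endothelium in the levels of Acta2, Pdgfrb and Mcam was not tested.

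Other tissue was unevenly spread over the libraries. Beside the counts below, 32.3% of all tested genes were called lower in VHH-PD-1-Fc tumours and 27.1% in VHH-OD-PD-1-Fc tumours, each set against Ctrl. The share was 24.5% in VHH-OD-PD-1-Fc against VHH-OD-Fc. Among 6 myoepithelial genes 2 were tested and 0 called, and their summed level was 0.624 to 5.46 FPKM in VHH-PD-1-Fc, 2.25 to 3.28 FPKM in VHH-OD-PD-1-Fc, 4.58 to 15.4 FPKM in VHH-OD-Fc and 3.69 to 30.7 FPKM in Ctrl libraries. Krt14 was at 26.8 FPKM in Ctrl library 2 and between 0.0261 and 3.87 FPKM in libraries with the arm, while Krt5 was at most 1.15 FPKM and at 0 in all VHH-OD-PD-1-Fc libraries. Of 12 tested skeletal muscle genes 0 were called against Ctrl or in VHH-OD-PD-1-Fc against VHH-OD-Fc, but libraries within groups differed widely. The skeletal muscle list summed to 49.9 to 2445 FPKM in VHH-OD-Fc and 64.6 to 363 FPKM in Ctrl libraries. It summed to 50.3 to 63.3 FPKM in VHH-PD-1-Fc and 238 to 240 FPKM in VHH-OD-PD-1-Fc libraries. Its medians against Ctrl were 1.88 in VHH-OD-Fc, -1.01 in VHH-PD-1-Fc and 1.21 in VHH-OD-PD-1-Fc tumours. Of 7 tested adipocyte genes 2 fell in VHH-PD-1-Fc tumours and 0 were called in VHH-OD-PD-1-Fc tumours against Ctrl, but 6 fell in VHH-OD-PD-1-Fc against VHH-OD-Fc, with a median of -2.18. The adipocyte list summed to 6.51 to 58.3 FPKM in VHH-PD-1-Fc, 31.9 to 34.3 FPKM in VHH-OD-PD-1-Fc, 101 to 384 FPKM in VHH-OD-Fc and 37.6 to 151 FPKM in Ctrl libraries. Its median against Ctrl in VHH-OD-Fc tumours, the group where the 6 pericyte genes were highest, was 1.54, with 0 of the 7 called. Of 11 tested epithelial genes, 1 rose in VHH-PD-1-Fc tumours, Krt18 at 0.72 ± 0.27 (limma adjusted p = 0.046), and 0 were called in VHH-OD-PD-1-Fc tumours. Of all 14306 tested genes, 2092 and 2158 were called higher in these groups than in Ctrl. Of 9 Schwann cell and melanocyte genes 2 were tested and 0 called against Ctrl. The part of these tissues in the 10 genes was not tested.

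**Figure D4:**
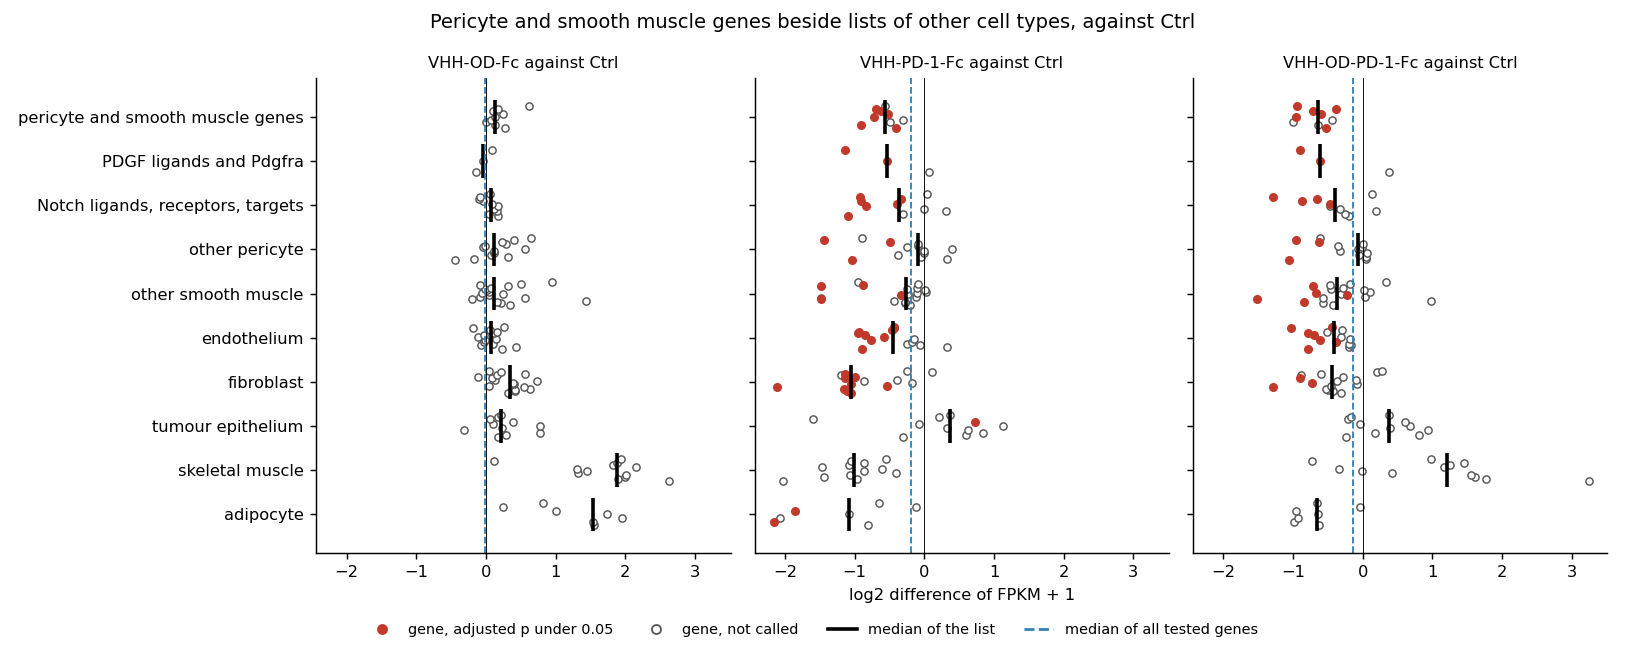
Log2 difference against Ctrl (x) of every tested gene of 10 gene lists (y) in 1 panel each for VHH-OD-Fc tumours, VHH-PD-1-Fc tumours and VHH-OD-PD-1-Fc tumours, with filled points at an adjusted p under 0.05, a bar at each list's median and a dashed line at the median of all tested genes. In VHH-PD-1-Fc tumours the median of the pericyte and smooth muscle genes, -0.57, lies between those of the endothelial list, -0.45, and the fibroblast list, -1.05. In VHH-OD-PD-1-Fc tumours it is -0.64, below both, at -0.42 and -0.44. The lists are not alike in filtering, so this order does not rank the cell types. Of the 9 genes 4 (Myh11, Cspg4, Notch3 and Abcc9) reached 1 FPKM only without the arm. They passed the filter through libraries where they were higher. The same held for 2 of 14 endothelial and 1 of 16 fibroblast genes.

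Within groups the 10 genes did not vary as 1 block. Deviations from the group means on the log2 scale, over 12 libraries, correlated across the 36 pairs of tested genes with Pearson's r from -0.59 to 0.97 and a median of 0.30. Acta2 and Cnn1 were closest, at 0.97, and Rgs5 and Notch3 followed at 0.90. Cspg4 and Notch3, both pericyte markers, were at -0.59. Rgs5 had r of -0.03 with Acta2, -0.17 with Pdgfrb and 0.61 with Abcc9, and Pdgfrb had r of 0.66 with Acta2 and 0.65 with Mcam. These values describe 12 libraries that share group means, scaling and, within a library, its tissue content.

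Over all tested genes the deviations most like those of Acta2 belonged to Slc22a15, Arhgef7, Anxa6, Creb3l2 and Wnt2, with r between 0.97 and 0.99 over 12 libraries. Those most like Rgs5 belonged to Dlx4os, Mbd1, Prelp, Psmb1 and Nsmce1, with r between 0.91 and 0.94. None of the 9 other genes followed here was among either 5.

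**Figure D5:**
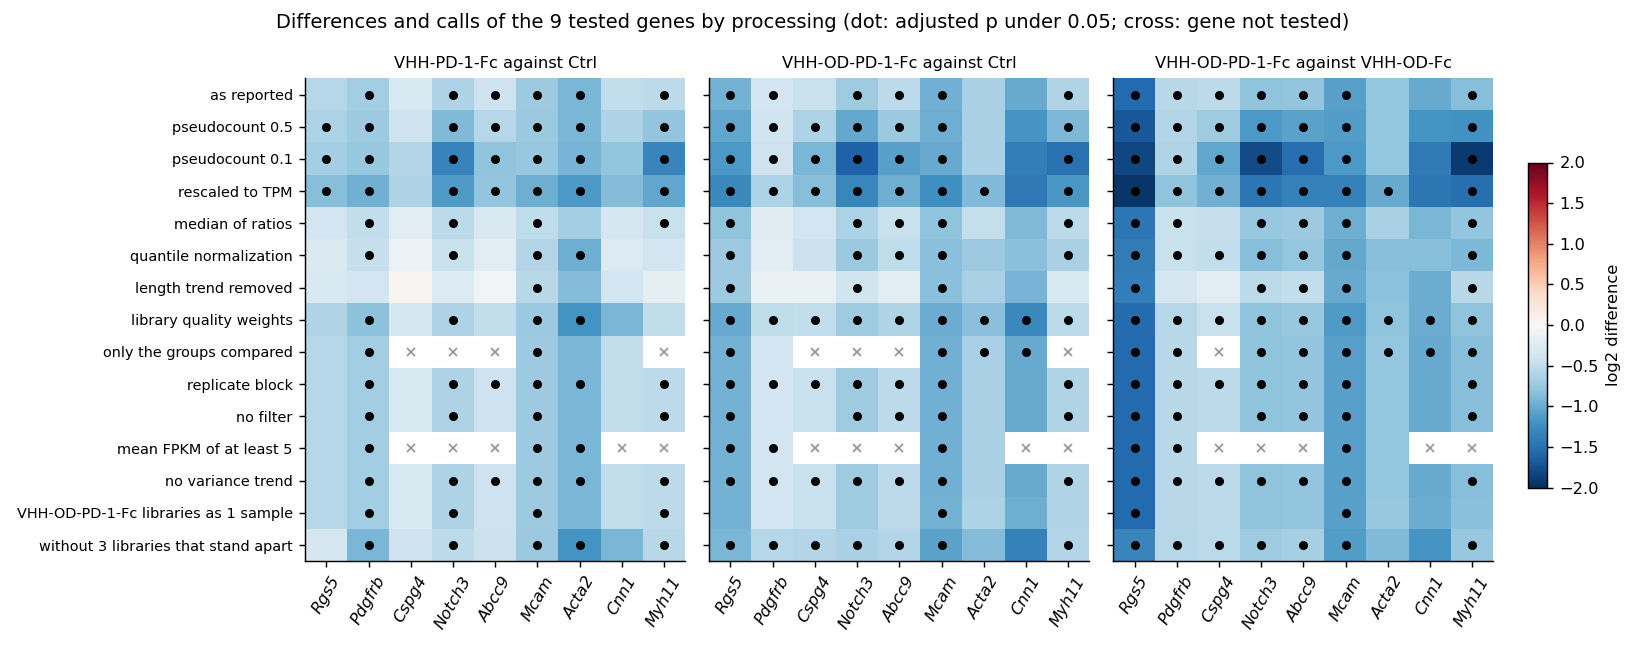
Log2 differences (colour) of the 9 tested genes (x) under 15 ways of processing (y) in the 3 comparisons between libraries with and without the PD-1 arm, with a dot at an adjusted p under 0.05 and a cross where the gene was not tested. Mcam has a dot in every row of each panel and Rgs5 in every row of the VHH-OD-PD-1-Fc against VHH-OD-Fc panel, while Pdgfrb, Cspg4, Notch3, Abcc9, Acta2 and Myh11 lose dots in the length trend row of at least 1 panel.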

How the data were processed

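Poly(A) RNA was sequenced as 12 tumour libraries in read pairs of 150 bp, per the labels' protocols. Reads were handled with fastp 0.22.0 and HISAT2 2.2.1, and GRCh38, a human assembly, is the build listed, per the submitters' processing notes, while the gene symbols of the table are those of mouse. The authors deposited 1 table of FPKM values for 41009 genes. Which tool made them, with which annotation and strand setting, is not given in the sources used here. The labels were used where the design text of the series, which speaks of a different tumour and different treatments, goes against them. No count model was fitted, since FPKM are not counts.

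Each column was matched to 1 sample by its name, and sample titles that read OD-Fc carry the treatment label VHH-OD-Fc. The main test was limma 3.58.1 (R 4.3.3) on log2(FPKM + 1), without further scaling, for genes with at least 1 FPKM in at least 3 of 12 libraries. A mean per group and a variance trend were fitted over all libraries at once (8 residual and 3.03 prior degrees of freedom), and p-values were adjusted over all 14306 genes tested. Gene lengths and overlaps came from GENCODE M21 by symbol, for 94.5% of the genes tested, and promoters from RefSeq. Depth was read from low values of 18382 genes with 1 transcript, of which 95.8% to 96.8% lay within 0.05 of a whole number of reads. The fit was tested on simulated data. Tables and figures were made with pandas 2.3.3 and matplotlib 3.10.9 in Python 3.11.15.

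The 10 genes, the 12 gene lists and the tests were chosen with earlier results of these data known. Named were all 10 genes, the PDGF, Notch and potassium channel lists, up to 3 called genes of smallest p from each other list, Acta1, Epcam, Krt14 and Pecam1 as markers, and the 5 genes most like Rgs5 and Acta2. Krt5, the list genes at 0 and the genes overlapping Tagln were named after their values were seen. Alternatives were other pseudocounts (0.1 and 0.5), filters, scalings (TPM, median of ratios, quantiles), removal of the length trend, quality weights, a replicate block, fits of the groups compared alone, no variance trend, the VHH-OD-PD-1-Fc libraries as 1 sample, and leaving out libraries.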

Additional observations from a re-analysis of the deposited data

How the results depend on the processing

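Over 14 alternatives and 12 fits that each left out 1 library, 1241 of 1352 values of single genes kept their direction and their side of the threshold, 62 lost the call, 33 gained it and 16 changed sign. Mcam kept its call throughout in the 3 comparisons between libraries with and without the PD-1 arm. The cause of a change was not tested, except that a mean of at least 5 FPKM leaves Rgs5, Pdgfrb, Acta2 and Mcam alone in the test, that a fit of the compared groups alone filters on 6 libraries, and that 1 sample in place of 3 leaves fewer degrees of freedom. Estimated from FPKM, annotated length and depth, the library with least held 13.1 reads of Tagln, 45.4 of Myh11 and 69.7 of Cnn1, against 567 of Rgs5, 1713 of Pdgfrb, 1686 of Mcam and 2154 of Acta2.

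In the 3 comparisons between sets, in the order below, 32.3%, 27.1% and 24.5% of all tested genes were called lower. At a mean of at least 5 FPKM, with 4 of the genes followed here tested, these shares were 30.6%, 24.8% and 22.3%. With the length trend removed, the first 2 were 18.5% and 16.8%. A fit of VHH-PD-1-Fc and Ctrl alone gave 20%, with Myh11, Cspg4, Notch3 and Abcc9 not tested. Of the genes followed here, VHH-PD-1-Fc against Ctrl had 6 of 9 called, but 1 with the length trend removed. It had 3 at a mean of at least 5 FPKM, 2 in that fit, and 4 to 7 with 1 library left out. VHH-OD-PD-1-Fc against Ctrl had 6, but 1 with its libraries as 1 sample, 3 with the length trend removed, 3 at a mean of at least 5 FPKM, and 4 to 8 with 1 library left out. VHH-OD-PD-1-Fc against VHH-OD-Fc had 7, but 2 with its libraries as 1 sample, 3 at a mean of at least 5 FPKM, and 6 to 9 with 1 library left out. The other 3 tests had 0 under each alternative, and no fit of the compared groups alone exists for the difference from additivity.

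Over all genes, VHH-PD-1-Fc against Ctrl gave 6707 calls, 3741 at a mean of at least 5 FPKM, 3805 in a fit of the compared groups alone, and 5347 to 6840 with 1 library left out. VHH-OD-PD-1-Fc set against Ctrl gave 6036, then 1305 with its libraries as 1 sample, 9901 with quality weights, 3293 at a mean of at least 5 FPKM, and 4493 to 6880. VHH-OD-PD-1-Fc against VHH-OD-Fc gave 5712, then 1080, 8716, 3157, and 4157 to 6528 under the same alternatives. VHH-OD-PD-1-Fc against VHH-PD-1-Fc gave 120, then 2 with its libraries as 1 sample, 11 with quality weights, 188 without the filter, 47 in a fit of the compared groups alone, 73 on TPM, 535 without Ctrl library 1, VHH-OD-Fc library 2 and VHH-PD-1-Fc library 2, and 6 to 549 with 1 library left out. The difference from additivity gave 16, then 2 with 1 sample, 38 with quality weights, 10 at a pseudocount of 0.1, 56 without those 3 libraries, and 2 to 105. VHH-OD-Fc against Ctrl gave 0, then 4 with quality weights, 2 without the filter, and 0 to 1.

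Changes of sign were among values that were not called. In VHH-OD-Fc against Ctrl, quality weights gave -0.033 for Acta2, -0.30 for Cnn1 and -0.044 for Cspg4, and leaving out the same 3 libraries gave -0.17 for Cnn1 and -0.046 for Cspg4. With 1 library left out, these differences ran from -0.012 to 0.29 for Pdgfrb, -0.10 to 0.24 for Acta2, -0.068 to 0.20 for Cspg4 and -0.34 to 0.19 for Cnn1. Removing the length trend turned Cspg4 in VHH-PD-1-Fc against Ctrl to 0.039. With 1 library left out, Cnn1 ran from -0.97 to 0.049 in that comparison, Acta2 from -0.14 to 0.61 and Myh11 from -0.19 to 0.013 in VHH-OD-PD-1-Fc against VHH-PD-1-Fc, and Acta2 from -0.27 to 0.49 in the difference from additivity.

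Replicate numbers did not pair the libraries. Same-numbered libraries of different groups had correlations of their deviations between -0.154 and 0.184, over 0.1 in 1 of 18 pairs, and 3 of 12 libraries correlated best with one of their own number. With the replicate number as a block, 6, 7 and 7 of the genes followed here were called in the 3 comparisons between sets, Cspg4 being added for VHH-OD-PD-1-Fc. Of all tested genes 30.9%, 25.9% and 23.4% were then called lower. With the same block 28 and 3 genes in all were called for VHH-OD-PD-1-Fc against VHH-PD-1-Fc and for the difference from additivity.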
